A study of Homo sapiens with 6 samples.

Results

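The genes described here encode the protein folding and quality control machinery of the endoplasmic reticulum (ER), and they were followed in HSC-4 cells treated with DAPT. HSC-4 is a cell line established from a human squamous carcinoma of the mouth. DAPT blocks γ-secretase, the protease that frees the intracellular part of Notch receptors. The 36 genes were picked by their current symbols from a list of ER chaperones, ER-associated degradation (ERAD) factors and sensors of unfolded protein, and all 36 were found among the 58884 genes of the deposited count tables. The rule used symbols alone, but the list was chosen with earlier results of these data known. Gene positions are those of the deposited tables on GRCh38. They were divided by role into 11 chaperones and cochaperones, 7 enzymes of disulfide bond formation, 11 ERAD factors, a sensor group of 5 genes (the sensors *ATF6*, *ERN1* and *EIF2AK3*, with *ATF6B* and *XBP1*) and 2 further genes of translocation into and export from the ER. The question was whether the chaperones, the ERAD factors or the sensors themselves moved with the inhibitor. Many chaperones are known as targets of *ATF6* and many ERAD factors as targets of *XBP1*, but the division by role does not separate the targets of these factors. Transcripts were measured by RNA sequencing in 3 libraries from HSC-4 cells given 50 µM DAPT for 24 h and in 3 libraries from control HSC-4 cells. According to the study's methods the controls received the DMSO vehicle, while its deposited description mentions only normal growth medium and the control count columns carry the letters GM, which are not explained. If the controls had no DMSO, what the vehicle does and what DAPT does cannot be told apart. The labels number the libraries without saying whether they came from separate cultures, so the p-values measure the spread between these libraries, which may be technical.

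Secretory and membrane proteins fold in the ER with the help of chaperones and disulfide enzymes, and those that fail are carried back to the cytosol and degraded by the proteasome, which is ERAD. When unfolded protein accumulates, 3 membrane sensors start the unfolded protein response. ATF6 is cut in the Golgi to free a transcription factor, IRE1 (encoded by *ERN1*) splices the mRNA of *XBP1* so that it encodes a strong activator, and PERK (encoded by *EIF2AK3*) phosphorylates the translation factor eIF2α, which lowers protein synthesis and favours translation of *ATF4*. Read counts per gene measure the amount of transcript only. They hold no information on the splicing of *XBP1*, the cleavage of ATF6 or the phosphorylation of PERK and eIF2α.

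Total counts per library lay between 12276313 and 16317672, and levels are given in CPM, which are read counts scaled to the size of the library. The smallest signal was set at 3 counts, or 0.184 to 0.244 CPM, a limit that covers counting error only. On the first principal component, with 56.6% of the variance, the treated and the control libraries lay on opposite sides. The Notch target genes *HES1* and *HEY1* were lower with DAPT, from 47.0 ± 4.0 to 27.5 ± 0.402 CPM and from 34.6 ± 1.77 to 8.75 ± 0.796 CPM (mean ± SD, n = 3 each). Within each group, library 1 differed most from the others by the chi-square of read counts per degree of freedom between 2 libraries. It was 5.68 and 5.58 for control library 1 with control libraries 2 and 3, against 1.58 between those. For DAPT library 1 it was 4.08 and 3.90, against 1.81 between DAPT libraries 2 and 3. Control library 1 also stood apart from the other 5 libraries in its fibroblast markers. All 5 fibroblast marker genes examined (*COL1A1*, *COL1A2*, *COL3A1*, *PDGFRB* and *DCN*) were highest in it, and together they made up 546 CPM there against 48.8 to 56.6 CPM in the other libraries, where *COL1A1* gave nearly the whole sum and *COL3A1* and *DCN* had at most 4 reads. The 3 leukocyte and the 3 endothelial markers summed to at most 0.307 and 1.49 CPM in any library. Counts of changed genes are therefore also given without control library 1, and the part of these transcripts in single results was not tested otherwise. Of the 6 squamous epithelial markers, *KRT5*, *KRT6A*, *TP63*, *CDH1* and *DSG3* were well expressed while *KRT14* was at 3.17 ± 0.319 CPM in the controls (SD, n = 3). *KRT5*, *KRT6A*, *KRT14* and *TP63* were lower with DAPT and *CDH1* was higher, and the summed level of the 6 fell from 4586 ± 55.2 to 2821 ± 57.8 CPM (SD, n = 3 each). The part of this shift in the results below was not tested.

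Of the 36 genes, 35 had enough reads to be tested. *DERL3*, a derlin of secretory tissues, had 1 read in a single DAPT library and 0 in the other 5, below the smallest signal in each. A gene was called when its adjusted p in the quasi-likelihood F test of edgeR, over 15001 genes, was under 0.05. By this rule 21 of the 35 were higher and 4 were lower with DAPT, and 10 were not called. That is 60.0% higher and 11.4% lower, against 17.2% higher and 18.0% lower among all genes tested. Their median log2 fold change was 0.19, against 0.01 for all tested genes, and the single values ran from -0.49 to 0.70, so that 0 of the 35 reached a 2-fold change. The 3 DAPT libraries lay entirely above the 3 control libraries in 23 genes and entirely below them in 6, which is 29 of 35, while groups that did not overlap were found in 46.3% of all tested genes. In bulk libraries, fewer cells that express a gene and less of its RNA per cell cannot be told apart. Without control library 1 the numbers were 20 higher and 5 lower, and among all 15162 genes of that fit 2726 were higher and 2892 were lower. When libraries were scaled by their total counts alone, 3445 of all tested genes were higher and 2156 were lower, in place of 2574 and 2707, and among the 35 genes 23 were higher and 4 were lower.

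**Figure D1:**
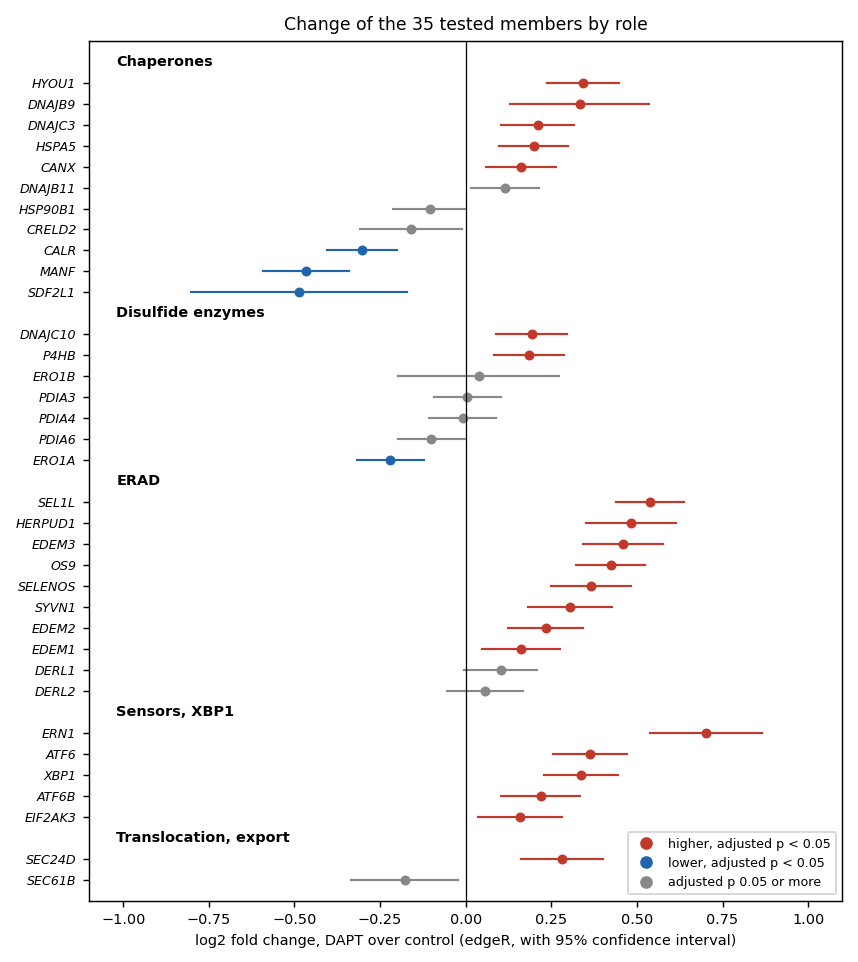
Log2 fold change of DAPT over control for the 35 tested genes, grouped by role (points, with 95% confidence intervals from edgeR as bars, and red for higher, blue for lower and grey for not called). All 10 tested ERAD factors and all 5 genes of the sensor group lie to the right of 0, while the chaperones fall on both sides, from -0.49 for SDF2L1 to 0.34 for HYOU1.

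The promoters of these genes include the best known binding sites of the unfolded protein response, and stretches of them are shown here. RefSeq promoters (GRCh38.p14, 250 bases before to 50 after a transcript start) were at hand for 32 of the 36 genes, all but *DERL1*, *DERL3*, *PDIA3* and *SEC24D*. The ER stress response element (ERSE, the letters CCAAT and CCACG with 9 bases between them, searched on both strands) was found in 8 of the 32 genes, or 25%, and in 25 of 27305 genes in the whole promoter table, or 0.0916%. The 250 bases before the start of *HSPA5* at chr9:125241344-125241593 on the minus strand are given first. Shorter stretches around the element follow for *CALR* (chr19:12938364-12938422, plus strand), *HSP90B1* (chr12:103930196-103930359, plus strand), *CANX* (chr5:179698758-179698816, plus strand) and *XBP1* (chr22:28800583-28800641, minus strand). All are written 5′ to 3′ along the gene, with the letters of the element in capitals, and an element on the opposite strand reads CGTGG and ATTGG.
HSPA5: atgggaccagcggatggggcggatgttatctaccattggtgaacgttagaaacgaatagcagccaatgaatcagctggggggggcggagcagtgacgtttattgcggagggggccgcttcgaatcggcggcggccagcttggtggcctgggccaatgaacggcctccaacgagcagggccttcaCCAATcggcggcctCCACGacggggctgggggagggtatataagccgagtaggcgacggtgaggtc
CALR: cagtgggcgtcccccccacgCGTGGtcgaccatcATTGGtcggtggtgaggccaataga
HSP90B1: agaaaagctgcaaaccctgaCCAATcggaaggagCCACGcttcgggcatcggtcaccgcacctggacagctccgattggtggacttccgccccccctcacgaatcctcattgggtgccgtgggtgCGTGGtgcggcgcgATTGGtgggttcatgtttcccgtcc
CANX: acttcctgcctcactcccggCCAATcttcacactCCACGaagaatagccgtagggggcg
XBP1: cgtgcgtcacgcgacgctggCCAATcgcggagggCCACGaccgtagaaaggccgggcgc
*HSP90B1* carries the element in each direction. The other 3 genes with it were *CRELD2*, *ERO1B* and *PDIA6*. A second form, ERSE-II (ATTGG and CCACG with 1 base between them), was found in 3 of the 32 genes, or 9.38%, and in 0.0696% of all genes in the table. These were *HERPUD1* (chr16:56932005-56932055, plus strand), *HYOU1* (chr11:119057254-119057410, minus strand), which has 2 copies, and *SDF2L1* (chr22:21642094-21642144, plus strand).
HERPUD1: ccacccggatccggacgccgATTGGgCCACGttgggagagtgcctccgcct
HYOU1: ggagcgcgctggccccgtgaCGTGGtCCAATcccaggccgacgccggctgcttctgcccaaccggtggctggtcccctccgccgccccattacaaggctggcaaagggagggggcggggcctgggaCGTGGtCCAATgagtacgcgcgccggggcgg
SDF2L1: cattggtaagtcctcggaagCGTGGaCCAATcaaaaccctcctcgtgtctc
The core of the unfolded protein response element, TGACGTGG, was found in *DNAJC10* and in *HYOU1*, where it overlaps the first ERSE-II copy, and in 0.927% of all genes in the table. An ATF4 element (TGATG, any base, AAT) was found in 0 of the 32 genes and in 1.22% of all genes in the table.

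Of the 8 genes with an ERSE, *HSPA5*, *CANX* and *XBP1* were higher with DAPT, *CALR* was lower and *HSP90B1*, *PDIA6*, *CRELD2* and *ERO1B* were not called, with a median log2 fold change of -0.031. Of the 24 tested genes that have a RefSeq promoter without an ERSE, 17 were higher and 3 were lower, with a median of 0.21. Only exact matches in these windows were counted, and the 24 include *HERPUD1*, *HYOU1* and *SDF2L1*, which carry an ERSE-II. Among the genes with an ERSE-II, *HERPUD1* and *HYOU1* were higher and *SDF2L1* was lower. Outside the 36 genes, 8 tested genes in the table carry an ERSE, of which 3 were higher and 2 were lower. Of the 12 that carry an ERSE-II, 0 were higher and 6 were lower. Among all tested genes, 17.2% were higher and 18.0% were lower. These groups are small, and whether an element went with the calls was not tested. A match of letters is a description of these windows and not evidence of binding.

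Among the chaperones, 5 of 11 were higher (45.5%, against 17.2% of all tested genes) and 3 were lower (27.3%, against 18.0%). The other 3 were not called, and the median log2 fold change of the 11 was 0.11. *HSPA5* encodes BiP, the HSP70 chaperone of the ER lumen and the most used marker of the unfolded protein response. It was at 1937, 1904 and 1801 CPM in the control libraries and at 2088, 2218 and 2167 CPM in the DAPT libraries (log2 fold change 0.20, standard error 0.049, adjusted p = 0.00322). All DAPT libraries lay above all control libraries, by 14.7% in the fit. *HSP90B1*, which encodes the HSP90 chaperone GRP94, was at 1973, 1824 and 1762 CPM in the controls and at 1775, 1741 and 1652 CPM with DAPT (log2 fold change -0.11, standard error 0.052, adjusted p = 0.121). Its groups overlapped, and the 95% confidence interval of the log2 fold change ran from -0.21 to 0.0023. Without control library 1 the log2 fold change was -0.056 (adjusted p = 0.356, edgeR). *CALR* encodes calreticulin, a soluble lectin chaperone, and its values were 1904, 1882 and 1929.9 CPM in the controls and 1638, 1509 and 1488 CPM with DAPT (log2 fold change -0.30, standard error 0.049, adjusted p = 6.12e-05). *CANX*, the membrane-bound relative calnexin, moved the other way, from 984, 918 and 942 CPM to 1108, 1025 and 1049 CPM (log2 fold change 0.16, standard error 0.049, adjusted p = 0.0133). The call for *CANX* was lost without control library 2 (adjusted p = 0.0905) and without control library 3 (adjusted p = 0.0634, both edgeR). These lectin chaperones, each with an ERSE, were called in opposite directions.

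Partners and cochaperones of BiP made up the rest of the higher chaperones. *HYOU1*, a large HSP70 relative that exchanges the nucleotide of BiP, went from 402, 419 and 433 CPM to 565, 516 and 509 CPM (log2 fold change 0.34, standard error 0.051, adjusted p = 2.08e-05). *DNAJC3*, a cochaperone with a J domain, went from 168, 153 and 155 CPM to 184, 181 and 187 CPM (log2 fold change 0.21, standard error 0.051, adjusted p = 0.00280). *DNAJB9*, a BiP cochaperone that binds IRE1, was at 13.5, 11.7 and 12.1 CPM in the controls and 15.1, 16.4 and 15.7 CPM with DAPT (log2 fold change 0.33, standard error 0.098, adjusted p = 0.0111). In all 3 genes the groups did not overlap, but *DNAJB9* rested on 1184 reads in all and lost its call without control library 2 (adjusted p = 0.0618) and without DAPT library 2 (adjusted p = 0.0514, both edgeR). *DNAJB11*, another J domain cochaperone, was at 139.9, 146 and 144 CPM and 156, 155 and 155 CPM and was not called (log2 fold change 0.11, standard error 0.048, adjusted p = 0.0693), although its groups did not overlap. Another annotated gene shares 7.87% of its exonic bases on the same strand, where reads were not counted.

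Besides *CALR*, the chaperones called lower with DAPT were *MANF* and *SDF2L1*. *MANF* (chr3:51385047-51389397) encodes a secreted and ER-resident protein that binds BiP, and it had 137, 128 and 120.3 CPM in the controls and 85.7, 98.9 and 94.4 CPM with DAPT (log2 fold change -0.47, standard error 0.060, adjusted p = 3.63e-06). *SDF2L1*, which encodes a partner of the BiP and DNAJB11 complex, was at 29.1, 42.8 and 38.0 CPM in the controls and at 22.8, 26.8 and 28.7 CPM with DAPT (log2 fold change -0.49, standard error 0.14, adjusted p = 0.0241). The lowest control library of *SDF2L1*, control 1, lay only just above the highest DAPT library. Its call was lost in limma-voom (adjusted p = 0.0520) and, in edgeR, without control library 3 (adjusted p = 0.106), without DAPT library 1 (adjusted p = 0.0884) and without DAPT library 2 (adjusted p = 0.0747). *CRELD2*, which encodes a cysteine-rich protein known to be induced by ER stress, had 40.3, 43.8 and 45.5 CPM and 37.9, 40.4 and 37.5 CPM and was not called (log2 fold change -0.16, standard error 0.072, adjusted p = 0.0899). Without control library 1 it was called lower (log2 fold change -0.21, adjusted p = 0.0173, edgeR). Summed over the 11 chaperones, the level was 7528 ± 180.1 CPM in the controls and 7529 ± 147 CPM with DAPT (SD, n = 3 each), a difference of 0.0133% with overlapping groups. Without control library 1, 5 chaperones were higher and 4 were lower.

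**Figure D2:**
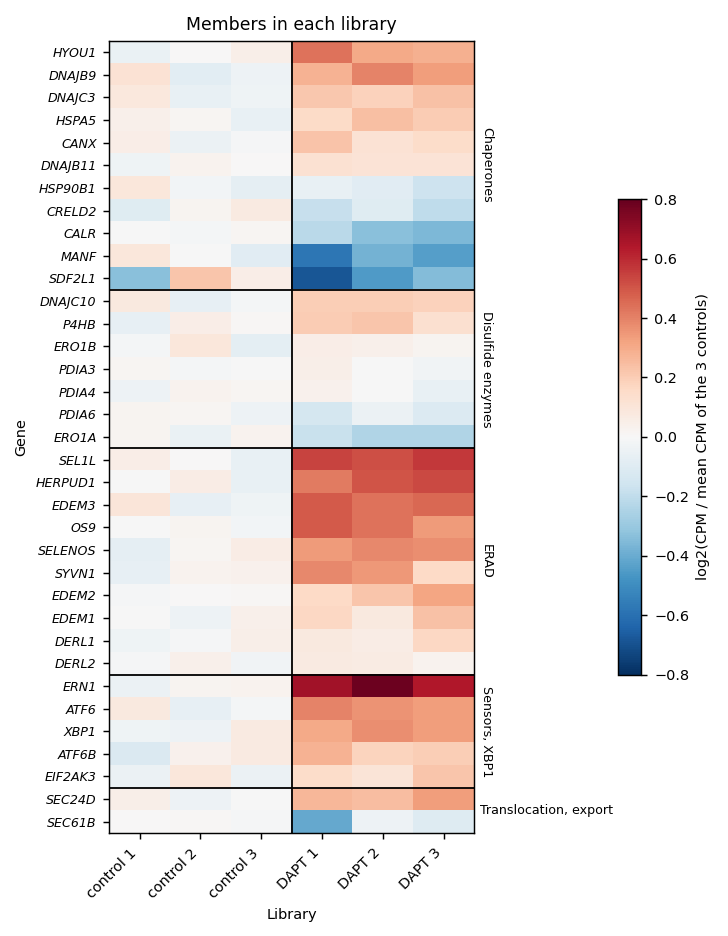
Each of the 35 tested genes (rows, by role) in each of the 6 libraries (columns), as log2 of its CPM over the mean of the 3 control libraries (red above, blue below). The ERAD and sensor rows are above the control mean in all 3 DAPT libraries, while CALR, MANF, SDF2L1 and ERO1A are below it in all 3. HSP90B1, PDIA6, CRELD2 and SEC61B, which were not called, are also below it in all 3. SDF2L1 also varies among the controls.

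Of the 7 disulfide enzymes, 2 were higher (28.6%, against 17.2% of all tested genes) and 1 was lower (14.3%, against 18.0%). The other 4 were not called, and the median log2 fold change of the 7 was 0.0051. Their summed level was 5113 ± 11.1 CPM in the controls and 5132 ± 104.4 CPM with DAPT (SD, n = 3 each). *P4HB*, which encodes protein disulfide isomerase itself, went from 933, 1012 and 981 CPM to 1124, 1137 and 1066 CPM (log2 fold change 0.19, standard error 0.049, adjusted p = 0.00539). *DNAJC10*, a reductase with a J domain that prepares clients for ERAD, went from 167, 152 and 157 CPM to 182, 182 and 180.5 CPM (log2 fold change 0.19, standard error 0.050, adjusted p = 0.00505). Both had groups that did not overlap, and *DNAJC10* missed the threshold without control library 2 (adjusted p = 0.0507, edgeR). With an offset for GC content and exonic length, the log2 fold change of *DNAJC10* was 0.12 (adjusted p = 0.0243, edgeR). *ERO1A*, the oxidase that recharges protein disulfide isomerase and is also known to respond to low oxygen, was lower, from 522, 495 and 525 CPM to 454, 435 and 434 CPM (log2 fold change -0.22, standard error 0.047, adjusted p = 0.000967). Its paralog *ERO1B* had 8.91, 9.60 and 8.53 CPM in the controls and 9.35, 9.29 and 9.14 CPM with DAPT and was not called (log2 fold change 0.038, standard error 0.11, adjusted p = 0.824). The remaining isomerases were not called. For *PDIA3*, which works with calnexin and calreticulin, the 95% confidence interval of the log2 fold change was -0.092 to 0.10, for *PDIA4* it was -0.11 to 0.089, and for *PDIA6*, with an adjusted p of 0.105 from edgeR, it was -0.20 to -0.0021. The counts of calls were the same without control library 1.

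Of the 10 tested ERAD factors, 8 were higher with DAPT (80.0%, against 17.2% of all tested genes) and 0 were lower (against 18.0%). The median log2 fold change of the 10 was 0.34. *SEL1L* (chr14:81471547-81533853), the scaffold of the membrane complex that carries out ERAD of luminal proteins, was at 225, 217 and 208 CPM in the controls and at 315, 309.5 and 320.2 CPM with DAPT (log2 fold change 0.54, standard error 0.048, adjusted p = 1.59e-08). This was the smallest adjusted p among the 35 genes, and every DAPT library lay above every control library. *SYVN1*, which encodes the ubiquitin ligase HRD1 of the same complex, went from 93.2, 99.6 and 100.1 CPM to 127, 124 and 109 CPM (log2 fold change 0.30, standard error 0.059, adjusted p = 0.000394). Other genes share 3.51% of the exonic bases of *SYVN1* on its strand, and reads there were not counted. *HERPUD1*, a membrane protein that organizes the complex, went from 45.8, 48.0 and 44.1 CPM to 61.3, 65.2 and 66.3 CPM (log2 fold change 0.48, standard error 0.063, adjusted p = 3.81e-06). *SELENOS*, a selenoprotein that links the complex to the ATPase VCP, went from 57.9, 61.5 and 63.4 CPM to 77.3, 79.4 and 78.7 CPM (log2 fold change 0.37, standard error 0.056, adjusted p = 2.86e-05). In each of these 4 genes the groups did not overlap, and the calls held in all 18 alternative fits.

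The factors that recognize misfolded glycoproteins were higher as well. *OS9*, a lectin that hands trimmed glycoproteins to SEL1L, was the most abundant ERAD transcript per length and had 365, 371 and 360.4 CPM in the controls and 513, 494 and 464 CPM with DAPT (log2 fold change 0.42, standard error 0.049, adjusted p = 7.13e-07). *EDEM3*, which encodes a mannosidase that trims the glycans of ERAD substrates, went from 74.9, 66.9 and 68.4 CPM to 98.3, 94.6 and 96.4 CPM (log2 fold change 0.46, standard error 0.056, adjusted p = 1.55e-06). The log2 fold changes of its relatives were smaller, and the differences between them were not tested. *EDEM2* went from 107, 108 and 108 CPM to 120.4, 125 and 134 CPM (log2 fold change 0.23, standard error 0.053, adjusted p = 0.00159). *EDEM1*, which is often used as a marker of the XBP1 branch, went from 80.5, 78.3 and 82.7 CPM to 90.4, 85.1 and 94.5 CPM (log2 fold change 0.16, standard error 0.055, adjusted p = 0.0271). The groups of *EDEM1* did not overlap, but its call was lost in DESeq2 (adjusted p = 0.0723) and, in edgeR, without control library 2 (adjusted p = 0.115), DAPT library 1 (adjusted p = 0.0544) or DAPT library 3 (adjusted p = 0.141). The derlins, which are thought to form part of the exit channel, were not called. *DERL1* was at 114, 115 and 119.9 CPM and 123, 121 and 130.5 CPM (log2 fold change 0.10, standard error 0.052, adjusted p = 0.131), and *DERL2* had a log2 fold change of 0.057 with a 95% confidence interval of -0.055 to 0.17. Without control library 1, 8 ERAD factors were higher and 0 were lower.

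Summed over the 11 ERAD factors, the level was 1233, 1239 and 1225 CPM in the control libraries and 1600.2, 1573 and 1566 CPM in the DAPT libraries, an increase of 28.2%. The summed ERAD transcripts were equal to 16.0%, 16.6% and 16.6% of the summed chaperone transcripts in the controls and to 20.8%, 20.9% and 21.2% with DAPT. Every DAPT library lay above every control library in both measures. For the 30 other ERAD genes described below, the sum rose less, from 2732 ± 21.2 to 2804 ± 7.79 CPM (SD, n = 3 each), or by 2.64%. These sums are weighted towards the abundant genes and are a description of the libraries, without a test.

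**Figure D3:**
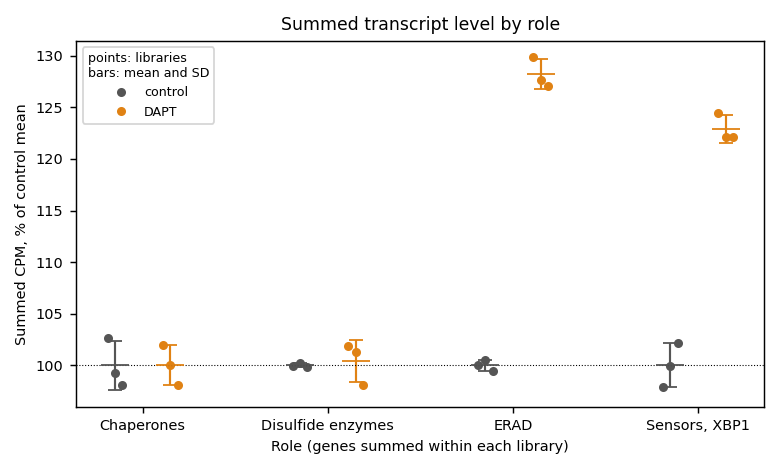
Summed CPM of the genes of each role in each library, as a percentage of the mean of the 3 controls (points for libraries, and bars for the mean and SD of 3). ERAD and sensor sums are 28.2% and 22.9% above the control mean with DAPT, while the chaperone and disulfide enzyme sums of the 2 groups overlap.

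All 5 genes of the sensor group were higher with DAPT (100%, against 17.2% of all tested genes), with a median log2 fold change of 0.34. *ERN1* (chr17:64039142-64130819), which encodes IRE1, had the largest log2 fold change among the 35 genes, from 16.8, 17.5 and 17.6 CPM in the controls to 27.5, 29.8 and 27.0 CPM with DAPT (log2 fold change 0.70, standard error 0.079, adjusted p = 4.17e-07). This is a rise of 62.7%, and it rested on 1909 reads in all 6 libraries. *XBP1*, the transcript that IRE1 splices, went from 99.5, 98.7 and 107 CPM to 126, 132 and 128 CPM (log2 fold change 0.34, standard error 0.052, adjusted p = 3.14e-05). *ATF6* (chr1:161766320-161964070) went from 127, 114 and 118 CPM to 158, 154 and 151 CPM (log2 fold change 0.36, standard error 0.052, adjusted p = 1.34e-05). *ATF6B*, its weaker paralog, went from 132, 147 and 151 CPM to 174, 162 and 164 CPM (log2 fold change 0.22, standard error 0.055, adjusted p = 0.00395), with 9.92% of its exonic bases shared with *TNXB* and another gene on the same strand. The groups did not overlap in any of these 4 genes, and their calls held in all 18 alternative fits. *EIF2AK3* (chr2:88556740-88627464), which encodes PERK, had the smallest log2 fold change of the group, from 63.7, 70.2 and 63.9 CPM to 72.9, 70.8 and 77.1 CPM (log2 fold change 0.16, standard error 0.059, adjusted p = 0.0416). Control library 2 and DAPT library 2 were almost level for this gene. Its call was lost in 10 of the 18 alternatives, among them DESeq2 (adjusted p = 0.109) and the replicate block (adjusted p = 0.0594, edgeR). When a library was left out, its adjusted p in edgeR was 0.0836 without control library 1, 0.167 without control library 3, and 0.0747, 0.0587 and 0.196 without DAPT libraries 1, 2 and 3. The 5 genes summed to 449 ± 9.58 CPM in the controls and 551 ± 6.08 CPM with DAPT (SD, n = 3 each), an increase of 22.9%. Without control library 1, 4 of the 5 were higher.

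The remaining 2 genes act before folding and after it. *SEC24D*, a subunit of the COPII coat that selects cargo for export, was higher, from 59.6, 56.3 and 57.6 CPM to 69.4, 68.6 and 72.9 CPM (log2 fold change 0.28, standard error 0.058, adjusted p = 0.000653). *SEC61B*, the small β subunit of the translocation channel, was at 84.2, 84.7 and 83.4 CPM in the controls and at 63.3, 81.8 and 78.2 CPM with DAPT (log2 fold change -0.18, standard error 0.074, adjusted p = 0.0724). DAPT library 1 was the lowest, and the other DAPT libraries lay closer to the controls. *SEC61B* was not called, but it was called lower without DAPT library 2 (log2 fold change -0.25, adjusted p = 0.0226), with the replicate block (adjusted p = 0.0490) and without a filter on low counts (adjusted p = 0.0277, all edgeR). Without DAPT library 1 its log2 fold change was -0.071 (adjusted p = 0.381), and with the offset for GC content and length it was -0.12 (adjusted p = 0.152, both edgeR).

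Compared per length, as RPKM (CPM per kilobase of exonic length), the transcripts spanned a wide range. In the controls *CALR* was highest at 702 ± 8.82 RPKM, followed by *HSPA5* at 479.6 ± 18.1, *PDIA3* at 445 ± 5.08 and *HSP90B1* at 395 ± 23.2 (SD, n = 3 each). None of these neighbours overlapped in the control libraries. With DAPT, *CALR* at 569 ± 30.0 and *HSPA5* at 550.3 ± 16.6 RPKM (SD, n = 3 each) overlapped. Among the sensors, *ERN1* was at 1.59 ± 0.0450, *EIF2AK3* at 12.1 ± 0.673 and *ATF6* at 15.2 ± 0.804 RPKM in the controls (SD, n = 3 each). The level of *ERN1* overlapped with that of *ERO1B*, at 1.68 ± 0.102 RPKM (SD, n = 3). The most abundant ERAD transcript per length, *OS9*, was at 70.7 ± 1.04 RPKM, below 8 of the folding genes.

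The other genes of the ER pathway also had more higher than lower calls. Their lists were made from general knowledge, but with earlier results of these data known. They include the PERK and ATF4 list, in which 11 of 14 genes were higher. Of 153 tested genes on 7 lists, 58 were higher (37.9%) and 8 were lower (5.23%), against 17.2% and 18.0% of all tested genes, and the lists' medians ran from 0.033 to 0.75. These numbers were 64 and 8 without control library 1. Other folding factors then gave 13 higher and 3 lower genes, other disulfide enzymes 5 and 1, and other ERAD genes 13 and 3. Translocon and glycosylation genes gave 9 and 0, so that their 1 lower gene, *SPCS2*, lost its call. COPII and retrieval genes gave 9 and 1, and partners of the sensors 5 and 0. Among other folding factors, 10 of 24 were higher and 3 were lower. *SIL1*, which exchanges the nucleotide of BiP as HYOU1 does, had the smallest adjusted p of those higher (log2 fold change 0.40, adjusted p = 0.000197). It was followed by *HSPA13*, an HSP70 relative (log2 fold change 0.37, adjusted p = 0.000265), and *MOGS*, the glucosidase that starts glycan trimming (log2 fold change 0.27, adjusted p = 0.000430). The lower ones were the peptidyl-prolyl isomerases *FKBP11* (log2 fold change -0.38, adjusted p = 0.00402) and *FKBP2* (log2 fold change -0.57, adjusted p = 0.0430), and *CNPY4* (log2 fold change -0.27, adjusted p = 0.00868). *FKBP2* shares 76.8% of its exonic bases with another gene on its strand, so its value is uncertain. Among other disulfide enzymes, 6 of 16 were higher, led by *TMX4* (log2 fold change 0.42, adjusted p = 0.000247), *QSOX1* (log2 fold change 0.18, adjusted p = 0.0110) and *GPX8* (log2 fold change 0.23, adjusted p = 0.0118), and *PDIA5* was lower (log2 fold change -0.26, adjusted p = 0.00235).

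Among 30 other ERAD genes, 9 were higher (30.0%) and 2 were lower (6.67%). Their median log2 fold change was 0.13, against 0.11 for the other folding factors. *UBE2J1* (log2 fold change 0.41, adjusted p = 2.32e-06), the ubiquitin-conjugating enzyme that works with HRD1, *ERLEC1* (log2 fold change 0.39, adjusted p = 2.77e-06), a lectin related to OS9, and *SEL1L3* (log2 fold change 0.41, adjusted p = 0.000253), a relative of SEL1L, led the higher genes. Both lower genes belong to the cytosolic machinery that pulls substrates out of the membrane, the ATPase *VCP* (log2 fold change -0.17, adjusted p = 0.00766) and its cofactor *UFD1* (log2 fold change -0.19, adjusted p = 0.00718). Of 33 genes of the translocon and of N-glycosylation, 9 were higher, led by *SEC11C* (log2 fold change 0.51, adjusted p = 6.88e-06) of the signal peptidase, *SEC61A1* (log2 fold change 0.34, adjusted p = 1.72e-05), the pore of the channel to which SEC61B belongs, and *SSR1* (log2 fold change 0.30, adjusted p = 5.64e-05), while *SPCS2* (log2 fold change -0.17, adjusted p = 0.0272), another signal peptidase subunit, was lower. Of 20 genes of COPII export and retrieval, 8 were higher, led by *MIA3* (log2 fold change 0.33, adjusted p = 5.23e-05), *SEC24C* (log2 fold change 0.24, adjusted p = 0.000572) and *SEC24A* (log2 fold change 0.28, adjusted p = 0.000679), and the retrieval receptor *KDELR1* was lower (log2 fold change -0.16, adjusted p = 0.0197). Of 16 partners and relatives of the sensors, 5 were higher and 0 were lower. *NFE2L1* (log2 fold change 0.36, adjusted p = 3.27e-06) and the ATF6-like factors *CREB3L2* (log2 fold change 0.43, adjusted p = 6.94e-06) and *CREB3* (log2 fold change 0.29, adjusted p = 0.000295) had the smallest adjusted p, all from the same edgeR test.

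Among the 7 lists, the largest changes lay in the list named for PERK and ATF4. There 11 of 14 genes were higher and 0 were lower, with a median log2 fold change of 0.75. The part of PERK, or of any other sensor, in these changes was not tested. *ATF4* itself was at 143, 153 and 146 CPM in the controls and 222, 209 and 199.8 CPM with DAPT (log2 fold change 0.51, standard error 0.052, adjusted p = 1.15e-07). *DDIT3*, which encodes the transcription factor CHOP, went from 16.7, 18.4 and 16.4 CPM to 35.4, 45.9 and 41.6 CPM (log2 fold change 1.25, standard error 0.093, adjusted p = 1.32e-09). *TRIB3*, a pseudokinase induced by ATF4 and CHOP, went from 29.3, 34.4 and 30.1 CPM to 105, 118 and 106 CPM (log2 fold change 1.81, standard error 0.068, adjusted p = 9.30e-15). None of these 3 genes had groups that overlapped. *CHAC1*, a glutathione-degrading enzyme, had a log2 fold change of 2.07, *ASNS*, asparagine synthetase, of 1.97 from 1.56 ± 0.475 CPM in the controls (SD, n = 3), and *PPP1R15A*, the phosphatase subunit that reverses eIF2α phosphorylation, of 1.05. A gene on the same strand shares 49.3% of the exonic bases of *ASNS*. The other called genes were *CEBPG* (log2 fold change 0.82, adjusted p = 8.61e-10), *SESN2* (log2 fold change 0.82, adjusted p = 1.08e-07), *ATF3* (log2 fold change 0.68, adjusted p = 0.00317), *PPP1R15B* (log2 fold change 0.30, adjusted p = 0.000108) and *DDIT4* (log2 fold change 0.16, adjusted p = 0.0403, edgeR). *CEBPB*, *EIF2S1* and *VLDLR* were not called, with log2 fold changes of 0.12, -0.095 and -0.041. With control library 1 left out, 10 of the 14 were higher and 0 were lower.

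**Figure D4:**
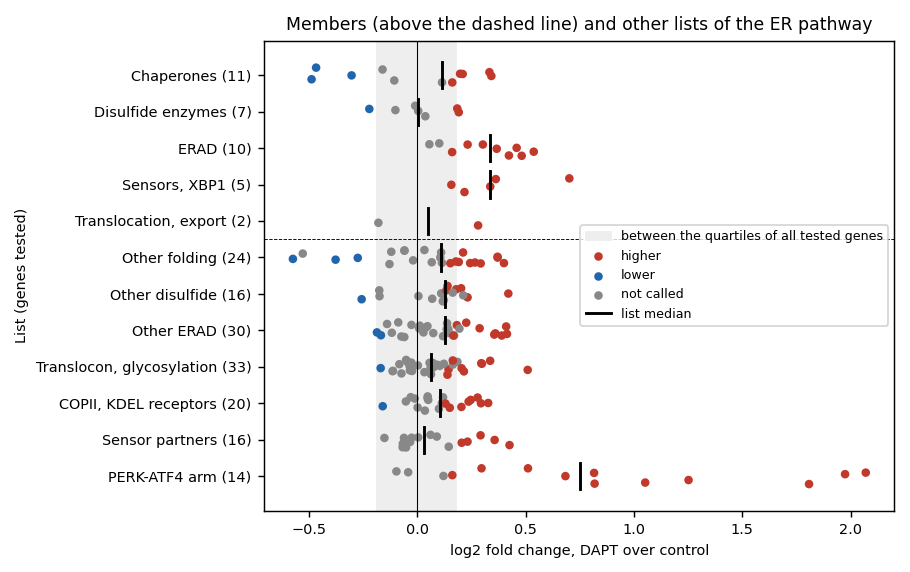
Log2 fold change of each tested gene (points, red for higher, blue for lower, grey for not called) in the 5 roles above the dashed line and in 7 other lists of the ER pathway below it, with list medians as black bars and the range between the quartiles of all 15001 tested genes shaded. The PERK and ATF4 arm reaches 2.07, while the 35 genes above the line stay between -0.49 and 0.70.

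Exonic length moved with these changes to some degree. Across the 35 tested genes, Spearman's rho of the deposited exonic length with the log2 fold change was 0.41, and across all 15001 tested genes it was 0.12. These are correlations across genes of the same libraries, which are not independent replicates. The median length was 5496 bases for the 21 higher genes and 2549 bases for the 4 lower genes, against 6058 and 4307 bases for all genes called higher and lower. *SDF2L1* with 1059 bases and *SEC61B* with 1209 bases were the shortest of the 35. Among all tested genes, 8.33% of the 3001 shortest and 26.2% of the 3000 longest were higher with DAPT. The shares that were lower differed less, at 18.9% of the shortest and 14.9% of the longest. With an offset for GC content and length in the fit, 21 of the 35 genes were higher and 5 were lower. Among all 14944 genes of that fit, 3177 were higher and 2771 were lower, in place of 2574 and 2707 of 15001. The median log2 fold change was 0.14 for the 35 genes and 0.026 for all genes, in place of 0.19 and 0.0096. For the chaperones it was 0.067, in place of 0.11. The ERAD factors again gave 8 higher and 0 lower genes and the sensor group 5 higher, while *HSP90B1* joined the lower chaperones (log2 fold change -0.13, adjusted p = 0.0154, edgeR).

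**Figure D5:**
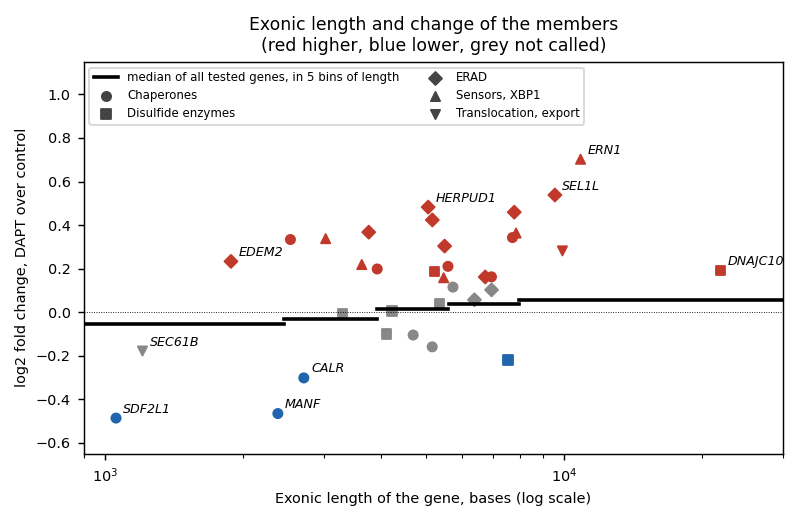
Log2 fold change against exonic length in bases (log scale) for the 35 tested genes, with symbols for role and colours for the call, and the medians of all tested genes in 5 bins of length as black lines. The lines rise from -0.055 for the shortest genes to 0.058 for the longest, and 3 of the 4 lower genes are shorter than 3000 bases.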

How the data were processed

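According to the study's methods, total RNA of HSC-4 cells was made into mRNA libraries (3 control and 3 DAPT), which were sequenced as single-end reads. The submitters' notes and the study's methods name Trim Galore and HISAT2 (GRCh38), and per the file headers featureCounts 1.6.3 counted reads over the exons of Ensembl 96 genes on the gene's own strand. The deposited values are these raw read counts per gene, not normalized. Reads that overlapped several genes or mapped to several places were not counted by default. The notes also list HTSeq and DESeq2, without a role.

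Genes were given symbols by Ensembl identifier from GENCODE 44. Counts were tested in R 4.3.3 with edgeR 4.0.16 (filter by group with a minimum count of 10, TMM normalization, robust quasi-likelihood fit and F test, Benjamini-Hochberg adjustment over the 15001 genes tested). Every adjusted p-value is from this test unless another tool is named, and the threshold was 0.05. CPM and RPKM were computed from the counts with TMM-scaled library sizes and, for RPKM, the deposited exonic length. Standard errors were derived from the test statistic. Total counts were 16317672, 14154396 and 12276313 in control libraries 1 to 3 and 15288370, 13405327 and 12800298 in DAPT libraries 1 to 3. Genes with few reads are measured with less precision.

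All 36 genes are described. From each other list of the pathway, the 3 genes with the smallest adjusted p in each direction among those called are named, and all genes of the PERK and ATF4 list. The genes and lists were chosen with earlier results of these data known. Alternatives were DESeq2 1.42.0, limma-voom (limma 3.58.1), the likelihood ratio test, other scalings and filters, a fit that is not robust, a replicate block, each library left out and an adjusted p under 0.01. An offset for GC content and length was added after the data were seen. The fit was tested on simulated counts, and the outcome is not given here. Promoter motifs were searched in RefSeq promoters of GRCh38.p14.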

Additional observations from a re-analysis of the deposited data

How the results depend on the processing

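Over 18 alternative fits, the 35 tested genes gave 630 values, of which 587 kept their direction and side of the threshold, 23 lost a call, 8 gained one and 12 changed sign, of which 0 were called in either fit. In every alternative, 16 genes were higher and 3 were lower (*CALR*, *MANF* and *ERO1A*). The sign changed in *ERO1B* (-0.047 with the GC and length offset, also with the replicate block), *PDIA3* (-0.0013 with upper quartile normalization) and *PDIA4* (0.038 with library size scaling, 0.058 with the offset and 0.057 with the offset and the replicate block). With each library left out in turn, *ERO1B* ran from -0.0013 to 0.081, *PDIA3* from -0.016 to 0.023 and *PDIA4* from -0.031 to 0.017. The number of higher genes ran from 17 to 23 and that of lower genes from 3 to 5. At an adjusted p under 0.01, 3 chaperones were higher. Without a filter on low counts *SEC61B* made 1 lower gene of translocation and export, and without DAPT replicate 2 it did so too, in place of 0.

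With the replicate block, 20 of the 35 genes were higher and 5 were lower, and *SEC61B* was again the 1 lower gene of translocation and export. By the correlation across 14199 genes, the replicate numbers gave no sign of pairing. Libraries of the same number, each taken as its difference from its group's mean, correlated at 0.0194, 0.0376 and -0.0193. In both groups, though, total counts fell from library 1 to library 3, and library 1 differed most from the other libraries.

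When each library was left out in turn, 17 to 20 genes were higher and 3 to 5 were lower. The calls among all tested genes moved as well. Those higher ran from 1901 without control library 3 to 2726 without control library 1. Those lower ran from 2190 without DAPT library 2 to 2892 without control library 1. The higher chaperones then numbered 3 to 5, with 3 without control replicate 2 (*CANX* and *DNAJB9* lost), and the lower chaperones 2 to 4. The higher disulfide enzymes numbered 1 to 2, with 1 without control replicate 2, the higher ERAD factors 7 to 8, the higher genes of the sensor group 4 to 5 and the lower genes of translocation and export 0 to 1.

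Depth limits *DERL3*, which had too few reads to pass the filter on low counts, and genes with few reads such as *ERO1B* with 769 reads. The study holds 1 cell line at 1 dose and 1 time, and transcript counts do not measure protein or sensor activity.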
